A study of Mus musculus with 139 samples.

Results

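The mRNA export factors examined here were 9 genes: Nxf1 and Nxt1, which encode the mRNA export receptor, and Thoc1, Thoc2, Thoc5, Thoc6, Thoc7, Alyref and Ddx39b, which encode TREX, the complex that loads it. They were selected by gene name and are 9 of the 52885 genes listed in each of 7 expression tables. All 9 passed the filter on low values (at least 1 in at least 2 libraries of a table) in each of the 6 replicated tables. The study used AID-FBEXOSC2 mouse embryonic stem cells (ESCs), in which the RNA exosome subunit EXOSC2 carries an auxin-inducible degron and is degraded when 0.5 mM indole-3-acetic acid (IAA) is added, with untreated cells of the same line (0 h) as controls. Of 139 samples, 70 expression libraries were used, 54 of them in groups of 2.

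The groups were as follows. Ribosomal RNA-depleted total RNA came from ESCs after 0, 4 and 20 h of IAA and from iMEFs at the same times; iMEFs were fibroblasts derived from the same ESCs by 10 days in 1 µM retinoic acid without LIF, the cytokine that maintains ESCs, and enriched by rapid attachment, so other cells may remain. Poly(A) RNA came from cultures labelled RAD0 and RAD1, again at 0, 4 and 20 h. The culture protocol of both describes differentiation by 2 µM retinoic acid for 24 h without LIF. What the 2 names stand for, and how the hours of IAA sat within those 24 h, is not stated in the labels or notes used. In the comparisons below RAD1, and not RAD0, was read as the retinoic acid culture, from the retinoic acid response genes alone. Nascent RNA was captured after a 10 min pulse of 1 mM 5-ethynyl uridine (EU) at 0, 1, 2 and 4 h. Subcellular RNA of ESCs at 0 and 4 h was split into an insoluble chromatin fraction (chrRNP), soluble nucleoplasm (np) and cytosol (cyto), beside whole-cell lysate (wcl). RNPmesh was the poly(A) RNA of the nuclear pellet left after DNase and washes in urea, detergent and salt, at 0, 4 and 12 h, and a sucrose gradient of native nuclear lysate gave fractions F2 to F9 at 0 and 12 h, with 1 library each. All groups derive from 1 degron line, no IAA-treated cells without the degron enter these comparisons, and nothing in the labels says that the 2 replicates of a group were separate cultures, so p-values measure the spread between those samples, which may be technical.

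Nuclear mRNA leaves through the nuclear pore bound to the heterodimer of NXF1 and its small partner NXT1 (p15). TREX is recruited to spliced and capped transcripts: the helicase DDX39B (UAP56) brings the adaptor ALYREF and the THO core (THOC1, THOC2, THOC5, THOC6 and THOC7, with THOC3), and ALYREF hands the transcript to NXF1. The RNA exosome degrades RNA from its 3′ end, and nuclear transcripts that are not exported are among its known substrates.

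In the mm10 build the genes lie at scattered loci: Nxf1 at chr19:8757073-8772475, Nxt1 at chr2:148672601-148676027, Thoc2 at chrX:41794991-41911901, Thoc5 at chr11:4895320-4928867, Thoc6 at chr17:23668618-23673882, Thoc7 at chr14:13949012-13961852, Alyref at chr11:120592121-120598365 and Ddx39b at chr17:35241746-35253707. All are annotated as protein-coding. Thoc1, Thoc6 and Thoc7 each overlap another coding gene at 1 end (Usp14, Hcfc1r1 and Atxn7, at 45.7, 7.65 and 1.08 FPKM in untreated ESCs). Thoc5 contains a pseudogene (AA413626, at 0.986 FPKM), and Ddx39b contains 4 small RNA genes, 2 snoRNAs and 2 miRNAs, all listed at 0 FPKM there. Whether counting used strand is not stated in the labels or notes used, so reads in the shared ends cannot be assigned.

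In ESC total RNA at 20 h, on the scale of log2 of FPKM + 1, Nxt1 and Thoc5 had the largest decreases and Thoc6 the smallest change. Because these genes moved apart, the start-site regions of these 3 members are shown. They are 300 bases each from RefSeq (GRCm38.p6, which is mm10), 250 before the start and 50 from it, 5′ to 3′ on the gene's strand, with matches to the searched motifs in capitals: chr2:148672365-148672664 (plus strand) for Nxt1, chr11:4895093-4895392 (plus strand) for Thoc5 and chr17:23673828-23674127 (minus strand) for Thoc6.
Nxt1: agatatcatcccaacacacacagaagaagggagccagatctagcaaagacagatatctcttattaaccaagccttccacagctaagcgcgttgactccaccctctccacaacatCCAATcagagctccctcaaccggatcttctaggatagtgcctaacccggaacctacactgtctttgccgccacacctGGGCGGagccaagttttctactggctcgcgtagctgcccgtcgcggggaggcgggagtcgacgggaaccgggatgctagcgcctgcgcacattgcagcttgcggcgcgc
Thoc5: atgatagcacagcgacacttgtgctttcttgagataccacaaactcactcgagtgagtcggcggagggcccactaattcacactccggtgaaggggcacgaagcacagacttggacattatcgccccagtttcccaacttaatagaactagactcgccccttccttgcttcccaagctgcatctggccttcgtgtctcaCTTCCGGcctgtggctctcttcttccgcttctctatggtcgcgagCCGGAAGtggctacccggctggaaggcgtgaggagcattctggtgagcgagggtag
Thoc6: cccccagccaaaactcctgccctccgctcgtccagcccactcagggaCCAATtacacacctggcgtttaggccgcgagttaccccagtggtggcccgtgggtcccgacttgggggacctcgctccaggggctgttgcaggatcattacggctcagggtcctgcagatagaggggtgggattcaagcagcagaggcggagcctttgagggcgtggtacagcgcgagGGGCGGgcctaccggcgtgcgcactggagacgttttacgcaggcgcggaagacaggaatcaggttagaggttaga
The motifs searched on both strands were CCAAT (the NF-Y box), GGGCGG (the GC box), CCGGAAG (an ETS site), CACGTG (the E-box), the NRF1 palindrome, TGACGTCA (the CRE) and TATAAA (the TATA box). CCAAT stood in the regions of Nxt1, Thoc6 and Alyref, and in 37.4% of 32851 RefSeq regions of this length. GGGCGG stood in those of Nxf1, Nxt1, Thoc2, Thoc6 and Alyref (35.7% of all), and CCGGAAG in those of Thoc5, Alyref and Ddx39b, each with 2 matches (8.86% of all). The Alyref region also held TATAAA (13.6% of all), Thoc7 held none of the 7, and no region of the 8 held CACGTG, TGACGTCA or the NRF1 palindrome (7.15%, 1.79% and 0.971% of all).

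H3K27ac is a histone mark of active promoters and enhancers, and the authors' peak lists give positions only. A peak covered the start site of 5 of 8 members at 0 h and 5 of 8 at 4 h (Nxf1, Nxt1, Thoc2, Thoc6 and Ddx39b at both times), against 54.7% and 54.3% of 8392 expressed genes with a RefSeq start region, so the members' share was near the background. The widest lay over Ddx39b, chr17:35240905-35242873 at 0 h (1969 bases) and chr17:35240986-35242854 at 4 h (1869 bases). Alyref and Thoc7 had a peak that ended inside the gene, within 1000 bases of the start. Thoc5 had none within 1000 bases at either time. Thoc1, at chr18:9958180-9995484, was not assessed, since no strand was at hand. With no peak heights and a 0 h list that the labels do not tie to 1 of 2 control sets, a change in acetylation could not be measured.

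As facts of the whole series, values were not on one scale: against 0 h the median tested gene moved by -0.31 (4 h) and -0.76 (20 h) log2 units in ESC total RNA and by -0.29 (np) to 0.21 (chrRNP) in the other tables. Spike-in RNA was added in several assays, but whether the deposited values use it is not stated in the labels or notes used, so each change is given as deposited and, where it matters, after rescaling, in which each library was brought to a common median level of the tested genes. Exosc2 mRNA itself lay at 2.74 to 3.75 FPKM in untreated ESCs and at 0.938 to 1.04 FPKM after 20 h; the degron acts on the protein, which these files do not measure. The 10 pluripotency markers were each at 1 FPKM or more in all ESC libraries, and their sum fell from 1883–1950 to 542–592 FPKM by 20 h; in iMEFs that sum was 6.00 to 13.5 FPKM while all 12 fibroblast markers were detected. The 6 retinoic acid response genes summed to 5.89–8.63 FPKM in untreated RAD0 and to 797–803 FPKM in untreated RAD1. In RNPmesh the pluripotency sum was 1760–1820 FPKM at 0 h and 898–1114 FPKM at 12 h. Libraries that stood apart were ESC 4 h replicate 1 (15.2% of its summed value from AY036118), RNPmesh 0 h replicate 2 (42.2% from Snord49b), RNPmesh 4 h replicate 1 (19.3% from Mir6236) and chrRNP 0 h replicate 1, whose typical gene lay lowest in its table.

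Untreated levels differed widely among genes whose proteins work in 1 pathway. In ESC total RNA the helicase gene Ddx39b was at 95.5 ± 0.645 FPKM (mean ± SD, n = 2), above 95.3% of tested genes. The receptor gene Nxf1 followed at 44.4 ± 2.80, the adaptor gene Alyref at 39.8 ± 2.82 and the receptor's partner Nxt1 at 31.0 ± 1.35 FPKM. The THO genes were lower: Thoc5 at 20.8 ± 1.02, Thoc6 at 19.9 ± 0.0557, Thoc7 at 16.1 ± 0.939, Thoc2 at 11.6 ± 0.743 and Thoc1 at 11.2 ± 0.796 FPKM. Only Thoc2 and Thoc1 overlapped in their 2 libraries; every other neighbour in this order was separated. In iMEFs, measured in a separate table, Nxf1 (52.6 ± 0.0217 FPKM) stood above Ddx39b (47.7 ± 2.28), and Thoc7 (21.1 ± 0.689) was the highest THO gene; levels across the 2 tables were not tested against each other. All of these are levels per length of transcript.

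**Figure D1:**
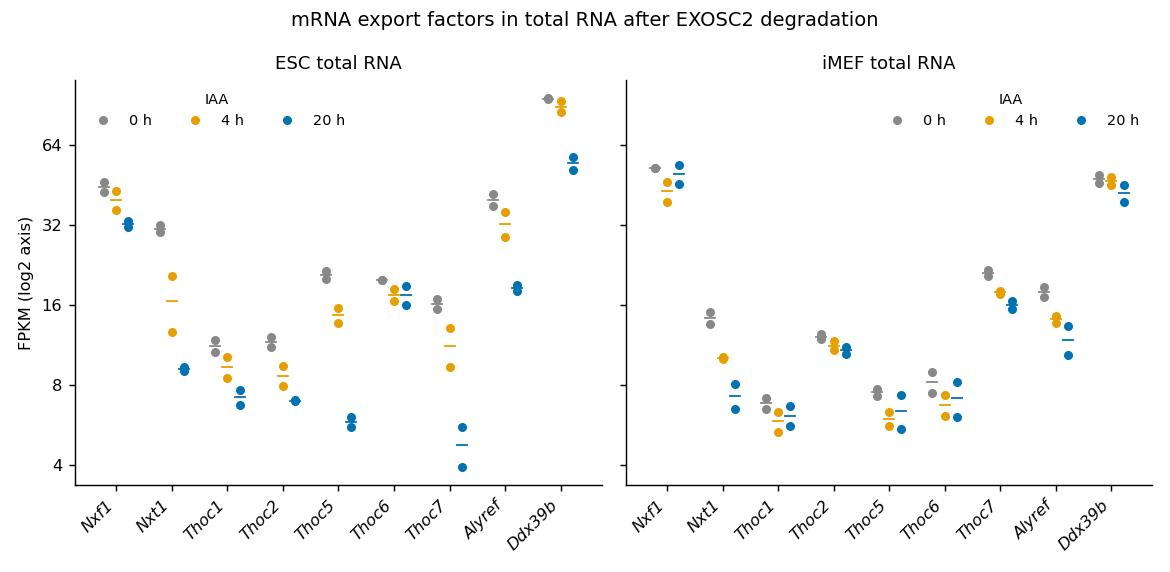
Level of each mRNA export factor in total RNA of ESCs (left) and iMEFs (right), in FPKM on a log2 axis, at 0, 4 and 20 h of IAA; points are the 2 libraries of a group and short lines their means. In ESCs Nxt1, Thoc5 and Thoc7 drop to between 3.94 and 9.31 FPKM at 20 h, while Thoc6 stays between 16.0 and 19.9 FPKM at all times.

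After 4 h of IAA, 2 members fell in ESC total RNA and none rose: Nxt1 and Thoc5. Of all tested genes 21.2% were called lower, so 2 of 9 was near the background, and the members' median change (-0.30) was close to that of all genes (-0.31). Nxt1, the receptor's partner, went from 31.9 and 30.0 to 12.7 and 20.5 FPKM, a change of -0.90 ± 0.21 (log2 of FPKM + 1, ± SE; limma, Benjamini-Hochberg adjusted p = 0.0335). Thoc5, a THO subunit, went from 20.1 and 21.5 to 13.7 and 15.6 FPKM (-0.48 ± 0.12, adjusted p = 0.0369). In both genes the 4 h libraries lay below both 0 h libraries, and in both the library with the AY036118 excess was the lower one. After rescaling neither was called (adjusted p = 0.102 and 0.456), without ESC 4 h replicate 1, ESC 0 h replicate 1 or ESC 0 h replicate 2 no member was called, and without ESC 4 h replicate 2 there were 5.

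By 20 h the members had parted into those that fell with or beyond the typical gene and those that fell less. As deposited, 8 of 9 were lower than at 0 h, all but Thoc6, against 67.8% of all tested genes, and their median change was -0.80 against -0.76 for all genes. Thoc5, Nxt1 and Thoc7 fell most and stayed lower after rescaling. Thoc5 reached 6.04 and 5.54 FPKM, 27.9% of its 0 h mean (-1.68 ± 0.12, adjusted p = 9.95e-05; rescaled -0.81). Nxt1 reached 9.05 and 9.31 FPKM, 29.6% of its start (-1.65 ± 0.21, adjusted p = 0.000526; rescaled -0.75). Thoc7, another THO subunit, went from 15.4 and 16.8 through 9.31 and 13.1 to 5.55 and 3.94 FPKM (-1.59 ± 0.20, adjusted p = 0.000509, rescaled -0.74). Its 20 h mean was 29.5% of that at 0 h. All 3 kept their 20 h libraries below every earlier library, and lay lower than all but 8.24% to 10.7% of tested genes in their change.

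Alyref and Ddx39b moved about as the typical gene did. Alyref went from 41.8 and 37.8 to 19.0 and 18.0 FPKM (-1.06 ± 0.14, adjusted p = 0.000631), and Ddx39b from 95.0 and 96.0 to 57.6 and 51.5 FPKM (-0.80 ± 0.12, adjusted p = 0.00118). Rescaled, neither was called (adjusted p = 0.0911 and 0.136), and the sign for Ddx39b turned to 0.15.

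Nxf1, Thoc1, Thoc2 and Thoc6 fell less than the typical gene or not at all, so their direction depended on the scale. Nxf1 went from 42.4 and 46.4 to 31.3 and 33.0 FPKM, called lower as deposited (-0.45 ± 0.13, adjusted p = 0.0168) and higher after rescaling (0.49, adjusted p = 0.00823). Its call as deposited was lost without ESC 0 h replicate 1 or 2 or ESC 20 h replicate 1 or 2, and that of Thoc1 without ESC 20 h replicate 2. Thoc1 (-0.57 as deposited, 0.29 rescaled) and Thoc2, the large scaffold of THO (-0.66 and 0.21), turned in the same way. Thoc6, the WD-repeat subunit of THO, was at 19.9 and 19.9 FPKM at 0 h and at 18.8 and 16.0 FPKM at 20 h; it was not called as deposited (-0.19 ± 0.13, adjusted p = 0.209) and was called higher rescaled (0.73, adjusted p = 0.00139). Rescaled, 4 members were higher and 3 lower, where 27.5% and 27.8% of all genes were.

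A ratio between 2 members of the same library does not depend on its scale. Nxt1 stood at 0.753 and 0.647 of Nxf1 in the 0 h libraries, at 0.349 and 0.479 at 4 h and at 0.289 and 0.282 at 20 h. The receptor's 2 subunits therefore moved apart at the RNA level, with no overlap between the times. Thoc5 to Nxf1 went from 0.473 and 0.464 through 0.376 and 0.364 to 0.193 and 0.168, and Thoc6 to Nxf1 from 0.470 and 0.428 to 0.600 and 0.484. In bulk RNA a lower level in each cell and fewer cells with the RNA cannot be told apart, and the part of the falling pluripotency markers in these values was not tested. Between 4 and 20 h, 5 members fell as deposited (Nxt1, Thoc5, Thoc7, Alyref and Ddx39b; 48.6% of all genes were called lower); Thoc6 changed by -0.01 ± 0.13 (adjusted p = 0.954), and without ESC 4 h replicate 1 the count was 8.

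In iMEFs fewer members were called, and Nxt1 had the largest change of the 9. No member was called at 4 h (limma; 1.63% of all genes were called in either direction), with 3 at an unadjusted p under 0.05 (Nxt1, Thoc7 and Alyref). At 20 h, 3 fell: Nxt1 from 13.6 and 15.0 to 8.05 and 6.50 FPKM (-0.89 ± 0.12, adjusted p = 0.00375), Alyref from 17.1 and 18.7 to 13.3 and 10.4 FPKM (-0.57 ± 0.13, adjusted p = 0.0214) and Thoc7 from 21.6 and 20.6 to 16.5 and 15.5 FPKM (-0.38 ± 0.09, adjusted p = 0.0233). In each the 20 h libraries lay below both 0 h libraries. Of all genes 22.2% were called lower; rescaled, Nxt1 and Alyref remained and Thoc7 did not (adjusted p = 0.126). The member median (-0.18) was that of all genes (-0.19). Thoc5, which fell most in ESCs, was at 7.74 and 7.26 FPKM at 0 h and at 7.34 and 5.45 FPKM at 20 h, groups that overlapped (-0.21 ± 0.14, adjusted p = 0.283). Whether iMEFs and ESCs differed in any change was not tested, since they are in separate tables. Without iMEF 0 h replicate 1, or without iMEF 0 h replicate 2, Alyref and Thoc7 were not called and 1 call was left, Nxt1.

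In poly(A) RNA of RAD0 and RAD1 cells, where the median gene moved by -0.11 to -0.14 with IAA, members were called in both directions. In RAD0 cells no member was called at 4 h (limma; 18.8% of all genes in either direction; 1 member, Ddx39b, at an unadjusted p under 0.05, and called higher rescaled). At 20 h 4 rose (Thoc1, Thoc2, Thoc6 and Alyref, where 18.4% of all genes rose) and 3 fell (Nxt1, Thoc5 and Thoc7, where 33.0% fell). Thoc6 rose most, from 23.3 and 24.3 to 45.7 and 40.2 FPKM (0.82 ± 0.12, adjusted p = 0.000645), above 89.4% of tested genes. Thoc7 went from 30.1 and 23.1 to 14.8 and 12.8 FPKM (-0.89 ± 0.19, adjusted p = 0.00409), and Thoc5 from 27.6 and 27.9 to 15.8 and 16.4 FPKM (-0.75 ± 0.07, adjusted p = 2.60e-05). In each of these 3 genes the 20 h libraries were separated from the 0 h libraries. Over the same 20 h the pluripotency sum of RAD0 cells went from 3156–3191 to 1948–2133 FPKM, and its part in these changes was not tested. Thoc2 rose from 15.9 and 13.5 to 19.3 and 19.0 FPKM (0.36 ± 0.08, adjusted p = 0.00562), Alyref from 30.6 and 31.3 to 36.3 and 36.3 (0.23 ± 0.07, adjusted p = 0.0231) and Thoc1 from 17.9 and 16.5 to 19.2 and 20.1 (0.18 ± 0.07, adjusted p = 0.0489). Nxt1 was at 27.5 and 28.8, then 22.6 and 18.2 FPKM (-0.45 ± 0.16, adjusted p = 0.0449; rescaled adjusted p = 0.170). Nxf1 was at 72.9 and 72, then 69.9 and 62.4 FPKM (-0.13 ± 0.07, adjusted p = 0.144). Without RAD0 0 h replicate 2, without RAD0 20 h replicate 2, or with no filter on low values, 4 members were called. Thoc2, Thoc5, Thoc6 and Thoc7 kept their calls with each of the 4 libraries left out in turn; Alyref lost its call without any 1 of them, Thoc1 without RAD0 0 h replicate 2 or RAD0 20 h replicate 1 or 2, and Nxt1 without RAD0 0 h replicate 1 or 2 or RAD0 20 h replicate 2.

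Alyref, called lower in ESC total RNA at 20 h, was thus called higher in RAD0 poly(A) RNA at 20 h. The tables differ in culture, in RNA selection (poly(A) against ribosomal depletion) and in scale, and the difference was not tested. At 20 h the median gene moved by -0.76 log2 units in ESC total RNA and by -0.13 in RAD0. Rescaled, Alyref was not called in ESCs, and its call in RAD0 was lost with any 1 library left out.

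**Figure D2:**
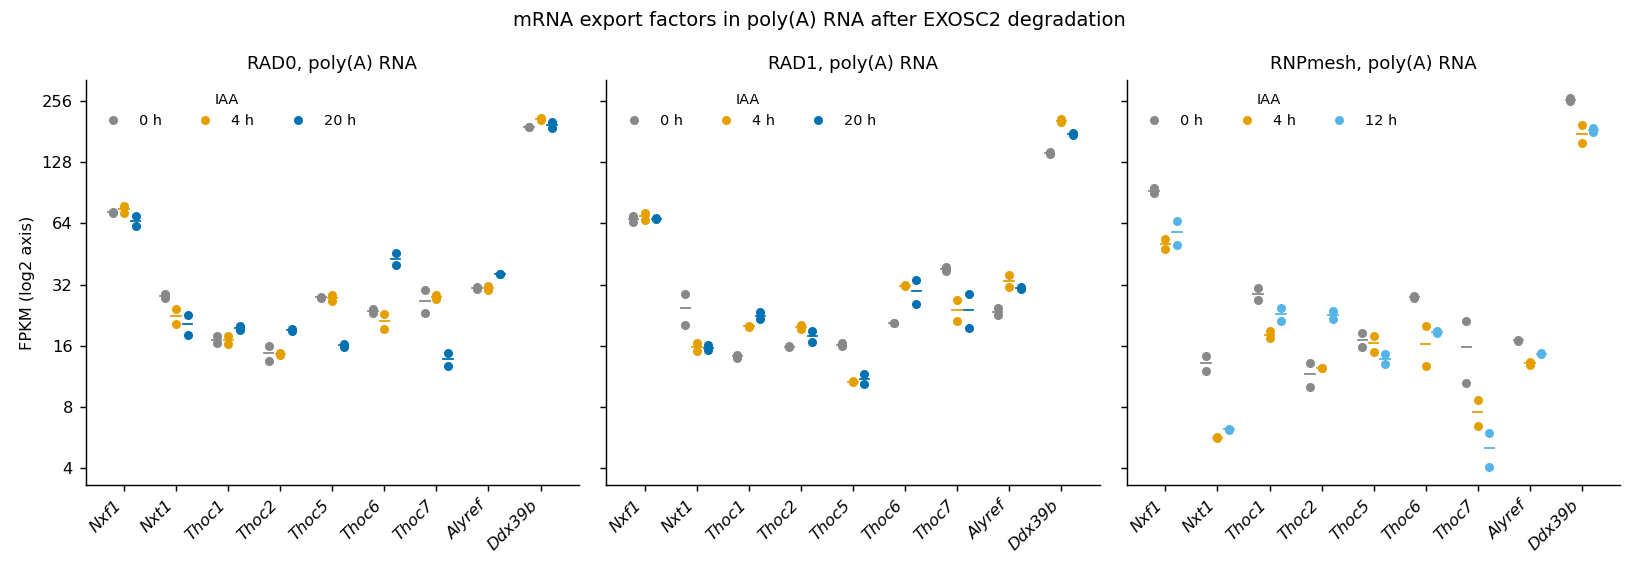
Level of each mRNA export factor in poly(A) RNA of RAD0 cells, RAD1 cells and the RNPmesh pellet, in FPKM on a log2 axis, by hours of IAA; points are the 2 libraries of a group and short lines their means. Thoc6 rises to 45.7 and 40.2 FPKM in RAD0 at 20 h while Thoc5 and Thoc7 drop to between 12.8 and 16.4 FPKM.

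Before IAA, RAD1 cells, which carried the retinoic acid response, had 4 members lower than RAD0 cells. Thoc5 was at 16.5 and 16.0 in RAD1 against 27.6 and 27.9 FPKM (-0.73 ± 0.07, adjusted p = 3.59e-05), Ddx39b at 140.2 and 144.4 against 191.6 and 190.7 FPKM (-0.42 ± 0.05, adjusted p = 0.000102), Alyref at 24.5 and 22.6 against 30.6 and 31.3 FPKM (-0.38 ± 0.07, adjusted p = 0.00201) and Thoc1 at 14.5 and 14.0 against 17.9 and 16.5 FPKM (-0.26 ± 0.07, adjusted p = 0.0135). No RAD1 library of these genes reached a RAD0 library. No member was higher, where 19.0% of all genes were lower and 27.7% higher, and the member median was -0.21 against 0.08 for all genes; rescaled, Nxf1 was called lower too (adjusted p = 0.0383). Thoc1 lost its call without RAD0 0 h replicate 1 or RAD1 0 h replicate 2. Thoc7 stood the other way, at 37.5 and 39.1 against 30.1 and 23.1 FPKM, without passing the test (0.52 ± 0.19, adjusted p = 0.0504). The pluripotency markers summed to 3156–3191 FPKM in untreated RAD0 and 1765–1882 in untreated RAD1, and the 5 endoderm markers to 0.540–0.921 and 16.0–16.5 FPKM (0 and 3 of 5 at 1 FPKM or more in both libraries, Afp at 0 in all); their part in these differences was not tested.

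In RAD1 cells 8 members were called already at 4 h. Thoc1, Thoc2, Thoc6, Alyref and Ddx39b rose, and Nxt1, Thoc5 and Thoc7 fell, 5 and 3 of 9 where 18.1% of all genes rose and 32.7% fell; all 8 were also called rescaled. The member median was 0.31 and that of all genes -0.14. Ddx39b went from 140.2 and 144.4 to 200.9 and 208.5 FPKM (0.52 ± 0.05, adjusted p = 2.91e-05) and Thoc6 from 20.8 and 20.7 to 32.0 and 31.4 (0.59 ± 0.12, adjusted p = 0.00439). Thoc5 went from 16.5 and 16.0 to 10.6 and 10.7 FPKM (-0.57 ± 0.07, adjusted p = 0.000149), and Thoc7 from 37.5 and 39.1 to 21.1 and 27 FPKM (-0.66 ± 0.19, adjusted p = 0.0182). In all of these the 4 h libraries were separated from the 0 h libraries. Nxt1 had 1 high control, at 20.2 and 28.9 against 15.1 and 16.5 FPKM (-0.58 ± 0.16, adjusted p = 0.0162). Without RAD1 0 h replicate 2, 5 members were called at 4 h, and Nxt1, Thoc2 and Thoc7 were not. The 6 retinoic acid response genes went from 797–803 to 283–292 FPKM in these libraries and to 149–163 FPKM at 20 h, and their part in the members' changes was not tested.

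At 20 h in RAD1 cells 4 were higher (Thoc1, Thoc6, Alyref and Ddx39b; 23.1% of all genes) and 3 lower (Nxt1, Thoc5 and Thoc7; 33.8%). Thoc1 rose most, from 14.5 and 14.0 to 23.4 and 21.7 FPKM (0.63 ± 0.07, adjusted p = 6.51e-05), and Ddx39b was at 178.6 and 173.3 FPKM, between its 0 h and 4 h levels (0.30 ± 0.05 from 0 h, adjusted p = 0.000461). Nxf1 was level, at 65.3 and 70.0 then 67.2 and 67.7 FPKM (-0.00 ± 0.07, adjusted p = 0.967). The change over 20 h was larger in RAD1 than in RAD0 for Thoc1 (difference 0.45 ± 0.10, adjusted p = 0.0103) and Ddx39b (0.28 ± 0.06, adjusted p = 0.0142), 2 of 9 where 13.9% of all genes were called in that direction. The 4 h and 20 h changes of a culture share their 0 h libraries, and the RAD1 0 h libraries enter the retinoic acid comparison too, so these are not independent. With no filter on low values 4 members were called at 20 h, and without RAD1 0 h replicate 1 Ddx39b no longer differed between the cultures while Thoc1 did. The 20 h calls of Nxt1 and Thoc7 were lost without RAD1 0 h replicate 2 or RAD1 20 h replicate 1, and that of Thoc6 without RAD1 20 h replicate 2.

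**Figure D3:**
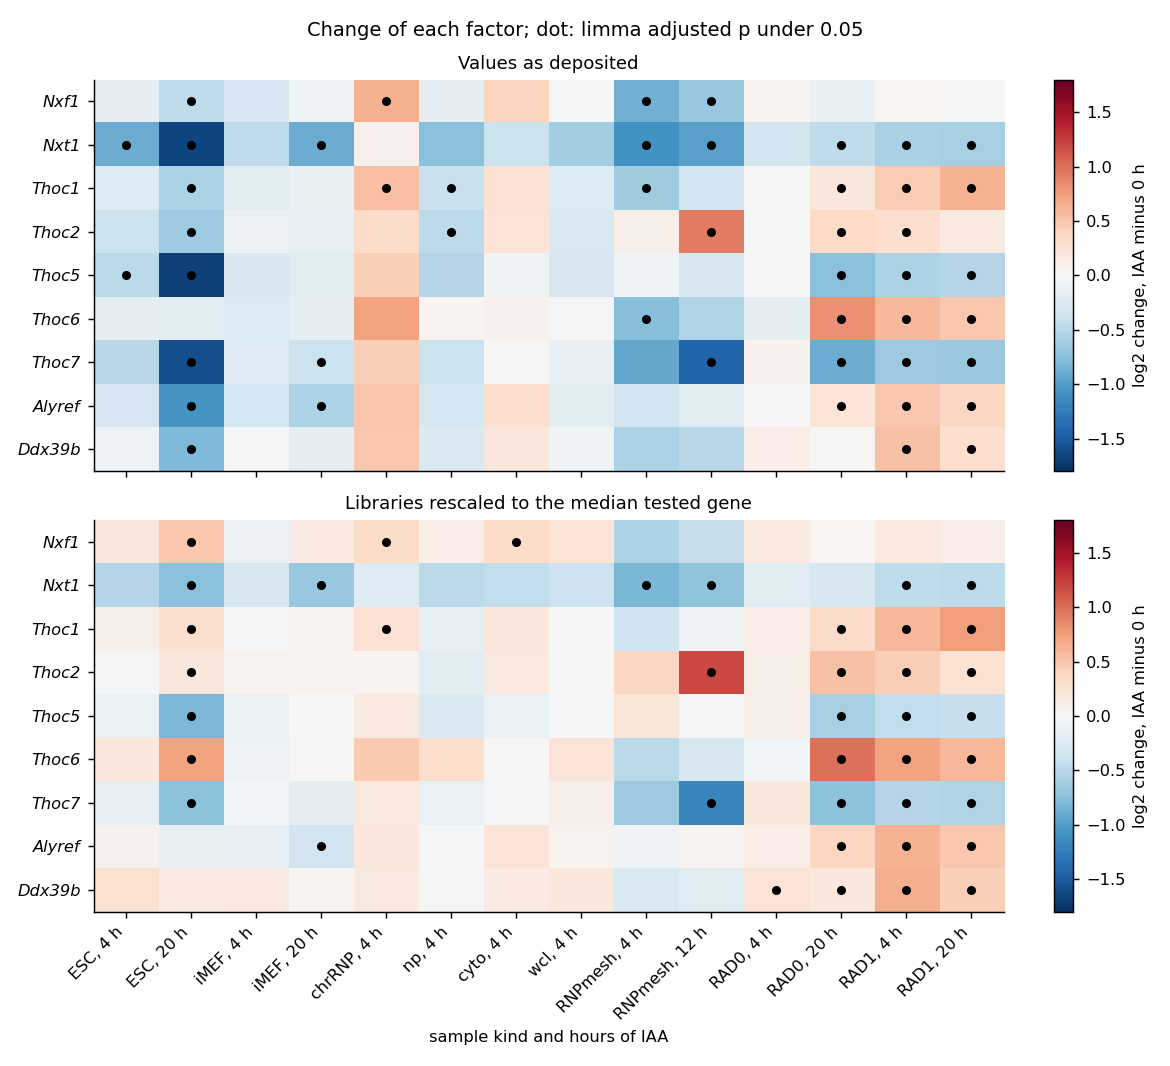
log2 change of each factor between IAA and 0 h in 14 comparisons, with values as deposited (top) and libraries rescaled to the median tested gene (bottom); colour is the change (red higher, blue lower) and a dot marks a limma adjusted p under 0.05. In ESCs at 20 h all rows but Thoc6 carry a dot for lower as deposited, and after rescaling Nxf1, Thoc1, Thoc2 and Thoc6 are higher while Nxt1, Thoc5 and Thoc7 are lower.

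To set members side by side without shared libraries, the last time point of each kind of sample other than nascent RNA gives 9 comparisons that have no library in common. Nxt1 lay below the median change of all genes in 9 of 9, by 0.13 to 0.90 log2 units, as did 4.38% of the 10170 genes tested in all of them. Thoc5 lay below it in 8 (all but chrRNP) and Thoc7 in 7 (all but chrRNP and wcl), where 13.9% of those genes were below in at least 8 and 27.6% in at least 7. Thoc6 lay below it in 1, RNPmesh, where 14.1% were below in at most 1. This grouping was made after the values were seen and was given no test.

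Nascent RNA gave no member a call at any time. Limma called 0.0451% of all genes at 1 h, 0.0113% at 2 h and 1.9% at 4 h in either direction; of the members none had an unadjusted p under 0.05 at 1 or 2 h and 2 did at 4 h (Thoc6 and Ddx39b). These values are RPKM over the whole gene span, and multiplied by that span they fell in equal steps in each library (92.2% to 95.1% of values within 0.05 of a whole step), which gives the reads behind them. The libraries held 2677312 to 5652030 reads. Thoc2, the longest member, had 565 to 1209 reads in a library, at 1.52 to 2.21 RPKM. Its 2 h libraries were at 1.52 and 1.58 RPKM, and the change from 0 h did not pass the limma test (-0.16 ± 0.10, adjusted p = 0.766). Ddx39b was at 7.21 and 7.71 RPKM at 0 h, at 7.32, 5.92, 7.42 and 8.87 at 1 and 2 h and at 5.94 and 4.29 RPKM at 4 h (-0.48 ± 0.19, adjusted p = 0.268).

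Nxt1 and Thoc6, the shortest members, had very few nascent reads. Nxt1 had 4 and 3 reads at 0 h, then 20, 27, 56, 10, 54 and 6. Thoc6 had 0 and 0 reads at 0 h, where a count of 0 allows up to 3 reads (0.105 and 0.213 RPKM), then 8, 20, 34, 9, 43 and 14. For both, every later library lay above both 0 h libraries, as it did for 4.42% of tested genes, and neither passed the test at any time: at 4 h Thoc6 changed by 1.21 ± 0.39 (adjusted p = 0.203) and Nxt1 by 1.10 ± 0.67 (adjusted p = 0.480) on the log2(RPKM + 1) scale. The 2 libraries of 1 time could lie far apart, as for Nxt1 at 4 h (54 and 6 reads). These reads count every RNA over the gene, introns included, and Thoc6 shares its start with Hcfc1r1.

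Within untreated ESCs the members' RNAs were spread differently between nucleus and cytosol. Against cytosol, chrRNP was lower for 8 members and higher for Thoc2 as deposited, where 63.4% and 14.3% of all genes were. Rescaled, 6 were lower and 2 higher, where 32.9% and 37.4% of all genes were. The typical gene was 0.88 log2 units lower in chrRNP as deposited, and the chrRNP and cyto values come from separate RNA preparations. Alyref was at 10.8 and 20.3 FPKM in chrRNP, 29.5 and 35.5 in np and 90.8 and 86.4 in cyto. Nxt1 was at 5.46 and 13.0, 16.1 and 23.4, and 57.0 and 50.2 FPKM in the same order. As deposited, both climbed from chromatin to cytosol with no overlap between fractions, as did Thoc6 (3.81 and 8.56, 17.8 and 20.4, 41.1 and 35.8 FPKM), Thoc5, Thoc7 and Ddx39b, 6 of 9 where 42.7% of all genes did. The typical gene of the chrRNP libraries stood at -1.42 and -0.85 log2 units from the common level, and that of np at 0.006 and 0.10. This climb was not read after rescaling. The step from chrRNP to np may be one of scale, and no difference in RNA between those 2 fractions is read from it.

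As deposited, Thoc2 was highest in np. Its np level was not compared with chrRNP after rescaling, so only the comparison with cyto is given on both scales. Thoc2 was at 6.20 and 7.89 FPKM in chrRNP, 15.7 and 16.3 in np and 5.47 and 5.40 in cyto. Its np level was 295% of its cyto level (1.40 ± 0.13, adjusted p = 4.01e-06), a difference above that of 89.1% of tested genes, and Thoc1 was also higher in np (14.6 and 15.3 against 9.63 and 9.61 FPKM; 0.58 ± 0.14, adjusted p = 0.00393). Nxt1, Thoc6 and Alyref were lower in np than in cyto, by 0.97 to 1.43, 3 of 9 where 33.8% of all genes were lower and 28.0% higher. After rescaling Nxf1 too was higher in np (0.56, adjusted p = 0.000208; as deposited 0.31, adjusted p = 0.141). For chrRNP minus cyto, Thoc2 was at 0.31 ± 0.13 (adjusted p = 0.0413) as deposited and 1.60 rescaled (adjusted p = 1.84e-07); as deposited it was not called with no filter on low values, without chrRNP 0 h replicate 2 or without either cyto 0 h replicate 1 or 2, and Thoc1 was at -0.65 as deposited but 0.64 rescaled. The np call of Thoc6 was lost without np 0 h replicate 1 or cyto 0 h replicate 1.

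**Figure D4:**
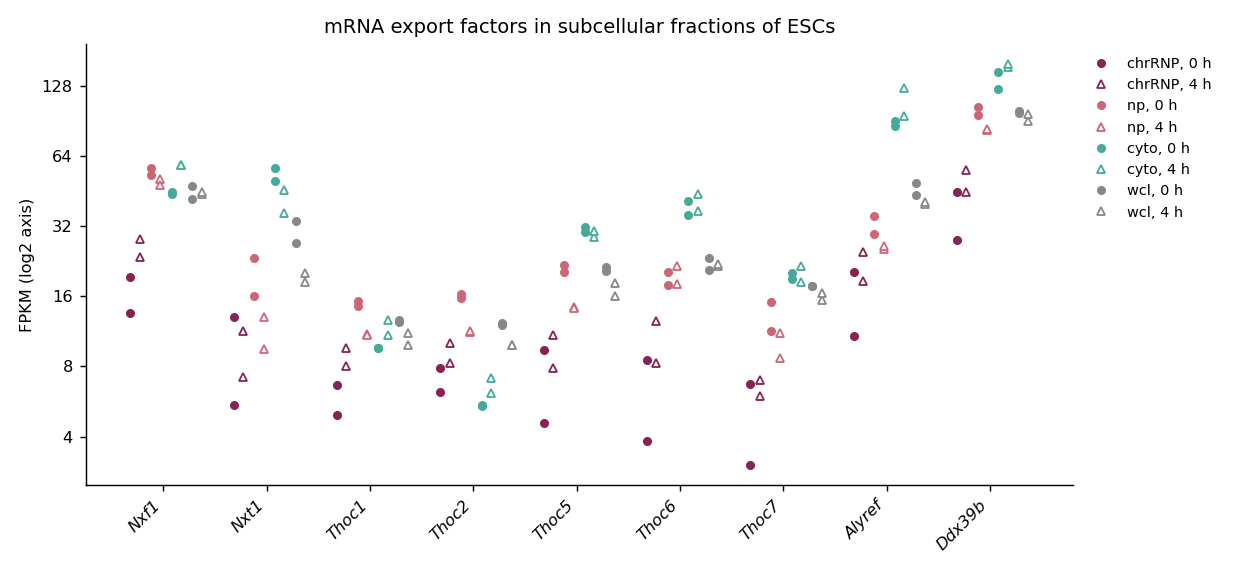
Level of each mRNA export factor in the chrRNP, np and cyto fractions and whole-cell lysate (wcl) of ESCs, in FPKM on a log2 axis; filled circles are the 2 libraries at 0 h and open triangles those at 4 h of IAA. Values are as deposited, and the chrRNP libraries lie lower in scale. At 0 h most members are highest in cyto on this scale, whereas Nxf1, Thoc1 and Thoc2 are highest in np. Thoc2 is at 15.7 and 16.3 FPKM in np against 5.47 and 5.40 FPKM in cyto.

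After 4 h of IAA, Nxf1 and Thoc1 rose in chrRNP (7.95% of all genes did) and Thoc1 and Thoc2 fell in np (23.4%). Nxf1 in chrRNP went from 13.5 and 19.4 to 23.6 and 28.3 FPKM (0.64 ± 0.17, adjusted p = 0.0412; rescaled 0.33, adjusted p = 0.0236), and Thoc1 from 4.95 and 6.66 to 8.01 and 9.63 FPKM (0.54 ± 0.14, adjusted p = 0.0347; rescaled 0.26, adjusted p = 0.0418). In both genes the times did not overlap. The typical gene was higher by 0.21 and the member median by 0.49. Without chrRNP 0 h replicate 1, the low library, no member was called; without chrRNP 0 h replicate 2 there were 8, without chrRNP 4 h replicate 1 there was 1 (Thoc1), and without chrRNP 4 h replicate 2, or with no filter on low values, none.

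In np, Thoc2 went from 15.7 and 16.3 to 11.2 and 11.3 FPKM (-0.47 ± 0.13, adjusted p = 0.0183) and Thoc1 from 14.6 and 15.3 to 11 and 10.9 FPKM (-0.41 ± 0.14, adjusted p = 0.0451). Neither was called rescaled (adjusted p = 0.109 and 0.242), and with np 0 h replicate 1, np 0 h replicate 2, np 4 h replicate 1 or np 4 h replicate 2 left out no member was. Nxt1 was lower by value in np (16.1 and 23.4, then 9.53 and 13.0 FPKM), cyto (57.0 and 50.2, then 36.6 and 45.6) and wcl (33.7 and 27.2, then 18.5 and 20.1). None of the 3 passed the limma test (adjusted p = 0.113, 0.741 and 0.216). The median gene moved by -0.29 in np, 0.04 in cyto and -0.23 in wcl. No member was called in cyto (limma; 6.45% of all genes either way; 1 member, Nxf1, at an unadjusted p under 0.05 and called higher rescaled) or in wcl (19.2%; no member at an unadjusted p under 0.05). The change in chrRNP or np did not differ from that in cyto beyond the test's threshold for any member (0.135% and 1.0% of all genes were called): at an unadjusted p under 0.05 there were 0 for chrRNP and 3 for np (Nxf1, Thoc1 and Thoc2), of which Thoc2 had the lowest adjusted p, 0.0750, at a difference of -0.71 ± 0.18. Without chrRNP 0 h replicate 2, 3 members were called for chrRNP. The 0 h libraries of each fraction enter several of these comparisons.

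In the RNPmesh pellet the receptor genes Nxf1 and Nxt1 fell and, at 12 h, Thoc2 rose. At 4 h Nxf1, Nxt1, Thoc1 and Thoc6 were called lower, 4 of 9 where 19.1% of all genes were, with a member median of -0.64 against -0.20; rescaled 1 was, Nxt1, against 9.06% of all genes. Nxt1 went from 14.3 and 12.1 to 5.61 and 5.69 FPKM at 4 h (-1.09 ± 0.19, adjusted p = 0.00680) and 6.19 and 6.28 at 12 h (-0.97 ± 0.19, adjusted p = 0.00319). Nxf1 went from 90.5 and 95.3 to 47.8 and 53.4 and then 49.9 and 66.1 FPKM (at 4 h -0.87 ± 0.23, adjusted p = 0.0255; rescaled adjusted p = 0.0599). In both genes all 4 treated libraries lay below both controls. Leaving out RNPmesh 0 h replicate 1 left 1 call at 4 h, RNPmesh 0 h replicate 2 (the Snord49b library) 2, RNPmesh 4 h replicate 1 (the Mir6236 library) 0 and RNPmesh 4 h replicate 2 also 0, and a pseudocount of 0.1 left 2. The 12 fibroblast markers summed to 935–1315 FPKM in RNPmesh at 0 h, 1488–1511 at 4 h and 683–798 at 12 h, against 87.8–98.1 in untreated ESC total RNA. Of the 12, 3, 4 and 3 were at 1 FPKM or more in both libraries of a time, Dcn, Lum and Prrx1 were at 0 in every RNPmesh library, and the part of this signal in the members' changes was not tested.

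At 12 h, 3 were lower (Nxf1, Nxt1 and Thoc7; 31.6% of all genes) and 1 higher (Thoc2; 16.3%). Thoc2 was at 13.2 and 10.0 FPKM at 0 h, 12.4 and 12.5 at 4 h and 21.8 and 23.8 at 12 h (0.92 ± 0.21, adjusted p = 0.00630; rescaled 1.18), 196% of its 0 h mean. Its 12 h libraries lay above all 4 others. Thoc7 went from 21.2 and 10.5 through 6.45 and 8.64 to 4.08 and 5.97 FPKM (-1.43 ± 0.32, adjusted p = 0.00645; rescaled -1.18), with controls far apart from each other. Nxf1 was not called rescaled (adjusted p = 0.0943), or without RNPmesh 0 h replicate 1 or 2 or RNPmesh 12 h replicate 1. Nxt1, Thoc2 and Thoc7 were called with each of the 4 libraries left out in turn.

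The nuclear sucrose gradient had 1 library per fraction and time, so it carries no test; which end is the denser is not stated in the labels or notes used. In untreated cells the summed FPKM of the libraries ran from 753200 in F2 to 131800 in F9, so a peak as deposited also carries this fall. As deposited, most members peaked early: Nxf1, Nxt1, Thoc6 and Ddx39b in F3, Thoc5, Thoc7 and Alyref in F4 and Thoc1 in F5. Nxt1 went from 13.7 FPKM in F2 to 25.2 in F3 and 0.731 in F9. Thoc2 was the only member to peak in F9 as deposited, climbing from 4.55 FPKM in F2 to 12.0. Its mean fraction, the FPKM-weighted average of fraction numbers, was 6.05, above 91.2% of 11710 genes, whereas that of Nxt1 was 3.91, above 11.9%. With fractions brought to equal total, the median gene had a mean fraction of 5.94. Thoc2 (7.10), Thoc1 (6.27) and Nxf1 (6.25) lay above it, and the other members below it, with Nxt1 at 4.61. Peak fractions were not read at equal total, so neither the early peaks nor the single F9 peak of Thoc2 is shown to hold there.

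At 12 h of IAA the mean fraction was higher for 8 of 9 members and for 94.7% of all genes, so the share was near the background. The median shift was 0.477 for the members and 0.441 for all genes. Nxf1 was the exception: its mean fraction went from 4.86 to 4.60, a shift of -0.262 that was smaller than that of all but 2.17% of genes. Nxf1 was at higher FPKM at 12 h in F4 (33.7 to 53.0) and F5 (30.7 to 42.5) and lower in F7 (20.1 to 15.2), F8 (22.7 to 13.8) and F9 (23.0 to 17.4). Nxt1 had the largest shift of the members, 0.641, with F3 at 25.2 then 11.1 and F5 at 11.2 then 12.9 FPKM. Thoc2 shifted by 0.170 and, as deposited, kept its peak in F9 (13.2 FPKM).

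**Figure D5:**
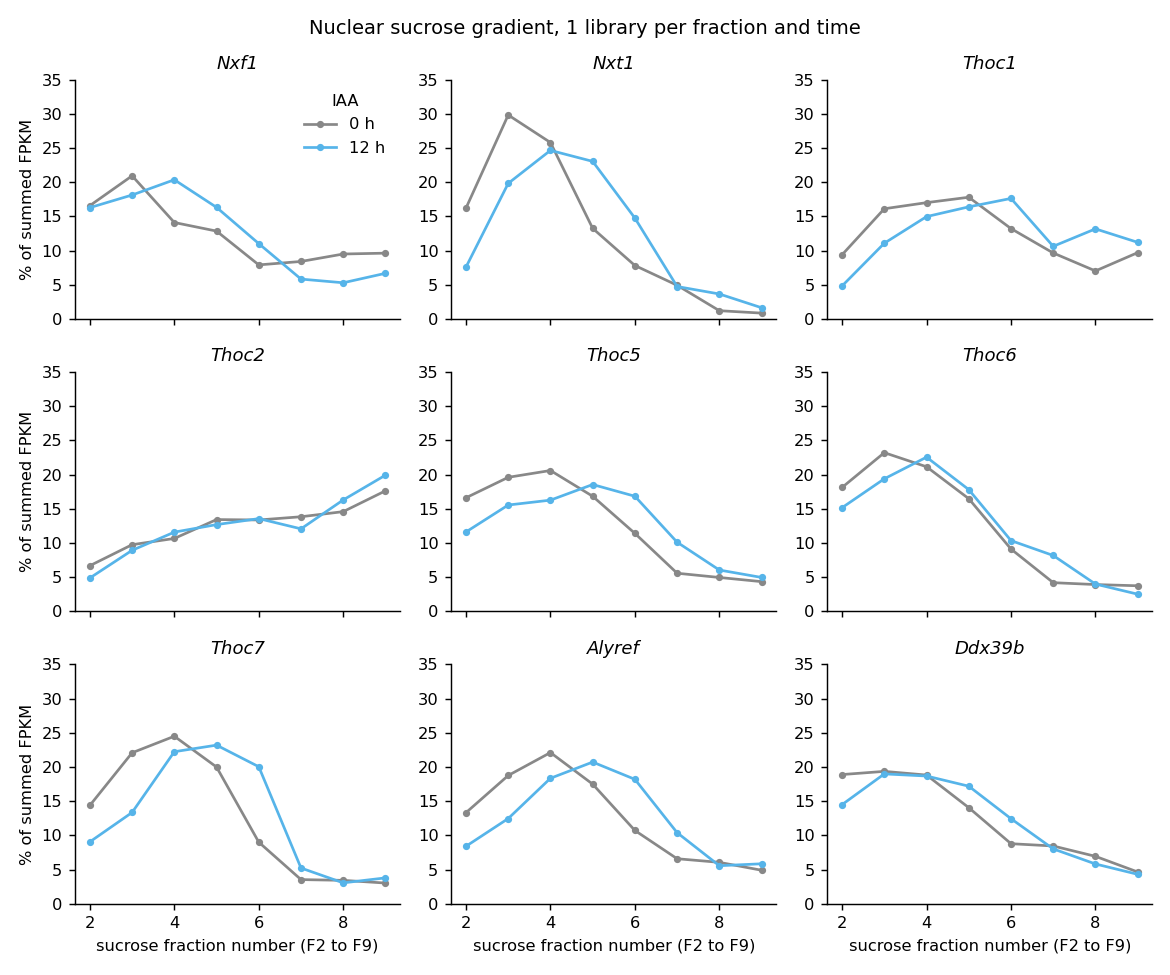
Share of each factor's summed FPKM in nuclear sucrose fractions F2 to F9, at 0 h (grey) and 12 h (blue) of IAA, with 1 library per point and no error. Fractions are not brought to equal total, so a share of FPKM is not a share of RNA. Thoc2 climbs toward F9 at both times, while Nxf1 has a smaller share of its summed FPKM in F7 to F9 at 12 h.

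The other genes of the pathway were described as 4 lists: 20 TREX partners and adaptors, the 6 genes of TREX-2 (which docks transcripts at the pore), 17 nuclear pore genes on the mRNA route and 9 exporters of other RNA with the Ran cycle that drives them. In ESC total RNA at 20 h, the partners had 1 of 16 tested genes higher and 13 lower (median -1.06), TREX-2 6 of 6 lower (-1.39), the pore list 16 of 17 lower (-1.08) and the other exporters 9 of 9 lower (-1.54), beside a median of -0.76 for all genes and 67.8% called lower. After rescaling the counts of lower genes were 8, 3, 7 and 8, with 5, 1, 1 and 0 higher, so the direction of single genes in the first 3 lists depended on the scale. The largest decreases by p were of Rcc1 (-2.13 ± 0.13, adjusted p = 8.31e-05), which loads Ran with GTP, Ranbp1 (-2.12 ± 0.15), a Ran-binding protein, and Xpot (-1.81 ± 0.13), the tRNA exporter. Of the partners, the shuttling SR proteins' genes Srsf3 (-1.56 ± 0.12, adjusted p = 0.000118) and Srsf7 (-1.61 ± 0.15, adjusted p = 0.000190) led.

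The exporters of other RNA were lower in RAD0 and RAD1 at 20 h as well, 7 of 9 and 8 of 9, with none higher and medians of -0.40 and -0.56 beside -0.13 and -0.11 for all genes. The members in the same libraries had 4 higher and 3 lower. Rcc1 fell by 1.44 (± 0.05, adjusted p = 2.59e-07) in RAD0 and by 1.39 (± 0.05, adjusted p = 1.50e-07) in RAD1. In the pore list 1 of 17 rose and 9 fell in RAD0, where 18.4% of all genes rose and 33.0% fell, and 5 rose and 11 fell in RAD1, where 23.1% rose and 33.8% fell; rescaled, the counts were 1 and 5 in RAD0 and 6 and 9 in RAD1. Aaas, the gene of the pore protein aladin, rose in both (0.80 ± 0.06 and 1.25 ± 0.06). Nxt2, a paralog of Nxt1, rose in RAD0 at 20 h (0.81 ± 0.09, adjusted p = 9.21e-05) while Nxt1 fell, and fell in iMEFs at 20 h (-0.75 ± 0.14, adjusted p = 0.0118).

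In RNPmesh at 12 h the pore list had 7 of 17 genes higher and 1 lower, with a median of 0.37 beside -0.23 for all genes, where 16.3% of all genes were higher and 31.6% lower. Rescaled, 9 were higher and 0 lower, where 24.5% and 23.6% of all genes were. Ranbp2 (2.04 ± 0.28, adjusted p = 0.000728), Nup214 (1.38 ± 0.20, adjusted p = 0.000823) and Nup155 (1.35 ± 0.23, adjusted p = 0.00168), large pore proteins of the cytoplasmic filaments and inner ring, and Mcm3ap (1.50 ± 0.19, adjusted p = 0.000527), the scaffold of TREX-2, were higher there beside Thoc2. In iMEFs at 20 h, 5 of 16 partners, 3 of 6 TREX-2 genes, 8 of 17 pore genes and 7 of 9 other exporters were lower and none higher, where 22.2% of all genes were lower. Rescaled, the counts of lower genes were 5, 1, 6 and 6, with 1, 0, 1 and 0 higher, where 13.5% of all genes were lower and 13.2% higher. Nup107 (-1.15 ± 0.10) and Rangap1 (-1.18 ± 0.10) led the last 2.

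Pearson r was taken across all 54 replicated libraries, after each gene's table mean and each library's median were taken out. Of 36 pairs of members, 16 had an r above 0. The share over all gene pairs was not computed, so this count is not read as a trait of the members. Differences between fractions, cultures and times stay in these values, so r does not measure a shared response to IAA alone. The highest was Thoc1 with Thoc2 (0.802), then Alyref with Ddx39b (0.521); Nxf1 and Nxt1 were at -0.517 and Thoc2 and Alyref at -0.559. Among 4033 eligible genes the 5 most like Nxf1 were Ndufa13 (0.746), Krtcap2 (0.705), Ssr4 (0.679), Spns1 (0.666) and Tex261 (0.666), and the 5 most like Ddx39b were Mrpl24 (0.623), Serf2 (0.602), Tfe3 (0.599), Kat2a (0.582) and Srrt (0.575). These are descriptions over libraries that share cells, times and fractions, and no other member was among either 5.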

How the data were processed

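Expression was taken from tables the authors deposited: FPKM values (fragments per kilobase of transcript, scaled to library size) for all assays but nascent RNA, which the authors deposited as RPKM over the gene span. Per the submitters' processing notes, TopHat2 2.0.11, Cufflinks 2.0.2, Bowtie2 2.2.6, Trim Galore, bedtools and MACS2 were used with mm10; the tool behind each file is not stated. The FPKM tables give no read depth, so no interval on a single value was computed. Peak positions were used as deposited, and the start site of Thoc1 was not assessed because no strand was at hand.

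Each replicated table was fitted as 1 model over all its groups on log2(value + 1) with limma 3.58.1 in R 4.3.3 (trended prior variance, Benjamini-Hochberg adjustment over all tested genes, threshold 0.05), on the genes that reached 1 in 2 or more libraries; the fit was tested on simulated data. A fold on this scale understates the change of low genes. Tried instead were a smaller pseudocount (0.1), no filter on low values, libraries rescaled to their median ratio, the replicate number as a block, an untrended prior, and 1 library left out at a time. Genes named are the 9 members, the 3 of each list with the smallest p in a comparison (some omitted), and the 5 most like Nxf1 and Ddx39b. The members and lists were chosen with earlier results of these data known.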

Additional observations from a re-analysis of the deposited data

Results flagged for a closer look

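The change over 20 h of IAA was larger in RAD1 than in RAD0 cells for Thoc1, by 0.45, and for Ddx39b, by 0.28 log2 units. Each was past the limma threshold for the difference itself (adjusted p = 0.0103 and 0.0142), where 13.9% of all genes were called in that direction. Both genes were lower in RAD1 than in RAD0 before IAA.

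In other pairs of sample kinds both treated libraries moved one way in the first and the opposite way in the second, and these differences were not tested. Between chrRNP and np at 4 h, the changes of Nxf1, Thoc1, Thoc2 and Ddx39b differed by 0.80, 0.94, 0.81 and 0.75 log2 units, each being positive in chrRNP and negative in np, as were 10.7% of all tested genes. The median gene moved by 0.21 in chrRNP, -0.29 in np, 0.04 in cytosol and -0.23 in whole-cell lysate, and rescaled the np changes of Nxf1 and Ddx39b were positive too (0.12 and 0.02), those of Thoc1 and Thoc2 still negative (-0.15 and -0.21). Between chrRNP and whole-cell lysate, those of Thoc1, Thoc2 and Ddx39b differed by 0.78, 0.61 and 0.57, again positive in chrRNP (9.02% of all genes). Between cytosol and whole-cell lysate, those of Thoc1, Thoc2, Alyref and Ddx39b differed by 0.50, 0.51, 0.49 and 0.28, positive in cytosol (12.5% of all genes). Rescaled, the whole-cell changes of Thoc1, Alyref and Ddx39b were no longer negative (0.00, 0.07 and 0.19), and that of Thoc2 was -0.02. Thoc6 at 4 h changed by -0.17 in RAD0 and 0.59 in RAD1, a difference of -0.76; 7.56% of all genes were likewise lower in RAD0 and higher in RAD1.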

How the results depend on the processing

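Rescaling the libraries turned the sign of 35 of 216 member values called in neither fit, and of 8 called as deposited or rescaled: in ESCs at 20 h Nxf1 to 0.49, Thoc1 to 0.29, Thoc2 to 0.21, Thoc6 to 0.73 and Ddx39b to 0.15, from 4 to 20 h Thoc2 to 0.25 and Thoc6 to 0.54, and for chrRNP minus cytosol Thoc1 to 0.64. The number of members called changed under rescaling from 2 to 0 in ESCs at 4 h and np, from 4 to 1 in RNPmesh at 4 h and from 0 to 1 in cytosol and in RAD0 at 4 h. With no filter it was 1 in ESCs at 4 h and in np, 0 in chrRNP and 4 in RAD0 and in RAD1 at 20 h. A pseudocount of 0.1 gave 1 in np and 2 in RNPmesh at 4 h, and no trend gave 1 for the 20 h difference between RAD1 and RAD0. The cause was not tested.

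Same-numbered replicates did not deviate together in every pair of groups (r from -0.145 to 0.145). These correlations cannot show whether same-numbered samples came from 1 culture or batch, which the labels do not say. The replicate block left 1 member called in ESCs at 4 h and 2 in RNPmesh at 4 h; 4 of 216 values lost their call and 1 gained it.

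Leaving out 1 library gave 0 to 5 calls in ESCs at 4 h, 6 to 7 at 20 h and 4 to 8 from 4 to 20 h, 1 to 4 in iMEFs at 20 h, 0 to 8 in chrRNP, 0 in np, 8 to 9 and 4 to 5 for chrRNP and np minus cytosol at 0 h, 0 to 3 for the chrRNP interaction, 0 to 2 and 3 to 4 in RNPmesh at 4 and 12 h, 4 to 6 in RAD0 at 20 h, 5 to 7 in RAD1 at 4 h and at 20 h, and 1 to 3 for the difference between them. The members' median shift in the gradient was 0.373 with fractions at equal total, 0.367 without F2 and 0.470 without F9, and at equal total Ddx39b shifted the other way. With 2 libraries a group and no counts outside nascent RNA, depth could not be weighed.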
